A study of Mus musculus with 18 samples.

Results

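The enzymes that make cholesterol and fatty acids, with the proteins that control them, were followed in mouse embryonic fibroblasts under stress of the endoplasmic reticulum (ER). The set held 30 genes listed by pathway membership, but it was chosen with earlier results of these data known. Of the 30 genes, 29 had a locus among the 51499 loci of the deposited table. Mvd was not analysed here. The 29 genes comprised 6 enzymes of the mevalonate steps, 11 enzymes from squalene to cholesterol, 5 regulators, 6 enzymes of fatty acid synthesis and 1 sterol carrier. All 29 reached a mean of at least 1 FPKM over the groups, as did 11929 loci in all. FPKM counts sequenced fragments relative to the length of the transcript and to all mapped fragments, so levels of different genes can be set side by side.

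Sequencing covered 18 RNA libraries in 6 groups of 3. The groups were cells labelled Ago2+/+ or Ago2-/-, each under the solvent DMSO, under tunicamycin or under 500 nM thapsigargin. All groups called Ago2+/+ here carry the name DCR1 in the library titles, and were read as Ago2+/+ from their other labels. AGO2 is the slicing enzyme of RNA interference, tunicamycin blocks the attachment of sugars to proteins in the ER, and thapsigargin empties the ER of calcium. The study asked which mRNAs respond to ER stress in a way that depends on AGO2. Both cell lines came from another laboratory, and the study's methods and its reporting summary name different ones. According to the reporting summary, the lines were not authenticated, and the absence of AGO2 from the knockout line was checked by western blot. The study describes the replicates of its experiments in general as biological, and the labels say nothing further of how the 3 libraries of a group were separated. The strain of the mice, the deleted part of Ago2 and the number of clones are not stated in those sources.

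Only 1 FPKM per group, pooled by the authors over its libraries, was available. No value therefore carries an SD, no test between groups was possible, and the depth of the libraries is unknown. A difference is given as the log2 ratio of FPKM + 1, and a gene is called different where that ratio reached 1.5-fold, a log2 ratio of 0.585 in either direction. Counts of pathway genes are read against the share of the 11929 loci that met the same rule. The median ratio of all loci lay between -0.026 and 0.0102 in the comparisons made.

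The groups did not resemble each other by their labels. Across loci, Spearman's correlation was 0.977 to 0.985 in 3 pairs of groups and 0.876 to 0.906 in the other 12 pairs, as a description over loci of shared libraries. These close pairs were Ago2-/- DMSO with Ago2+/+ tunicamycin (the first pair), Ago2-/- tunicamycin with Ago2+/+ thapsigargin (the second pair), and Ago2+/+ DMSO with Ago2-/- thapsigargin (the third pair). Each pair thus joins different genotype labels and different treatment labels. Ago2 itself followed the pairs and not the genotype labels, at 5.61 and 5.75 FPKM in the first pair, 15.5 and 17.0 in the second, and 22.1 and 20.7 in the third. For 4 libraries the labels conflict on genotype (replicate 2 of each Ago2+/+ group and replicate 3 of Ago2-/- DMSO), and they could not be left out of a pooled value. All directions below hold for the groups as labelled, and which label is right was not tested. Of 10 fibroblast markers, 5 were at 1 FPKM or more in every group, whereas Thy1 was listed at 0 in all 6 groups and Lum did not exceed 0.0138 FPKM. The summed level of the 10 was 2432 to 3629 FPKM, and Col1a1 ranged from 5.97 to 651 FPKM, highest in the second pair. Markers of adipocytes, epithelium, endothelium and hepatocytes did not exceed 1.56, 0.65, 0.427 and 0.0604 FPKM, and among immune markers only Cd68 passed 1 FPKM, at up to 1.82.

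Cholesterol is built from acetyl-CoA through mevalonate, farnesyl diphosphate, squalene and lanosterol, and most of the enzymes sit in the ER membrane. When sterols in that membrane run low, SCAP escorts the SREBP transcription factors to the Golgi, where proteases release the part that enters the nucleus and switches on sterol and fatty acid genes. When sterols are plentiful, INSIG proteins hold SCAP back in the ER.

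The genes of the pathway were expressed at 3.65 FPKM or more in every group, and few of them differed widely between groups. In these bulk samples, fewer cells of a type and less RNA per cell cannot be told apart. The highest group exceeded the lowest by a median of 1.60-fold over the 29 genes on the FPKM + 1 scale (range 1.29 to 2.59), beside a median of 1.66-fold over all loci. Only 5 of the 29 genes (17.2%) differed by at least 2-fold between their highest and lowest group, beside 32.3% of loci. They were Hmgcs1, Cyp51, Dhcr7, Insig2 and Fasn. In mean FPKM over the groups, the desaturase gene Scd2 was highest at 229.5, and Fdps followed at 130.2. Hsd17b7, which encodes a reductase of the C4 demethylation steps, was lowest at 4.77 FPKM.

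**Figure D1:**
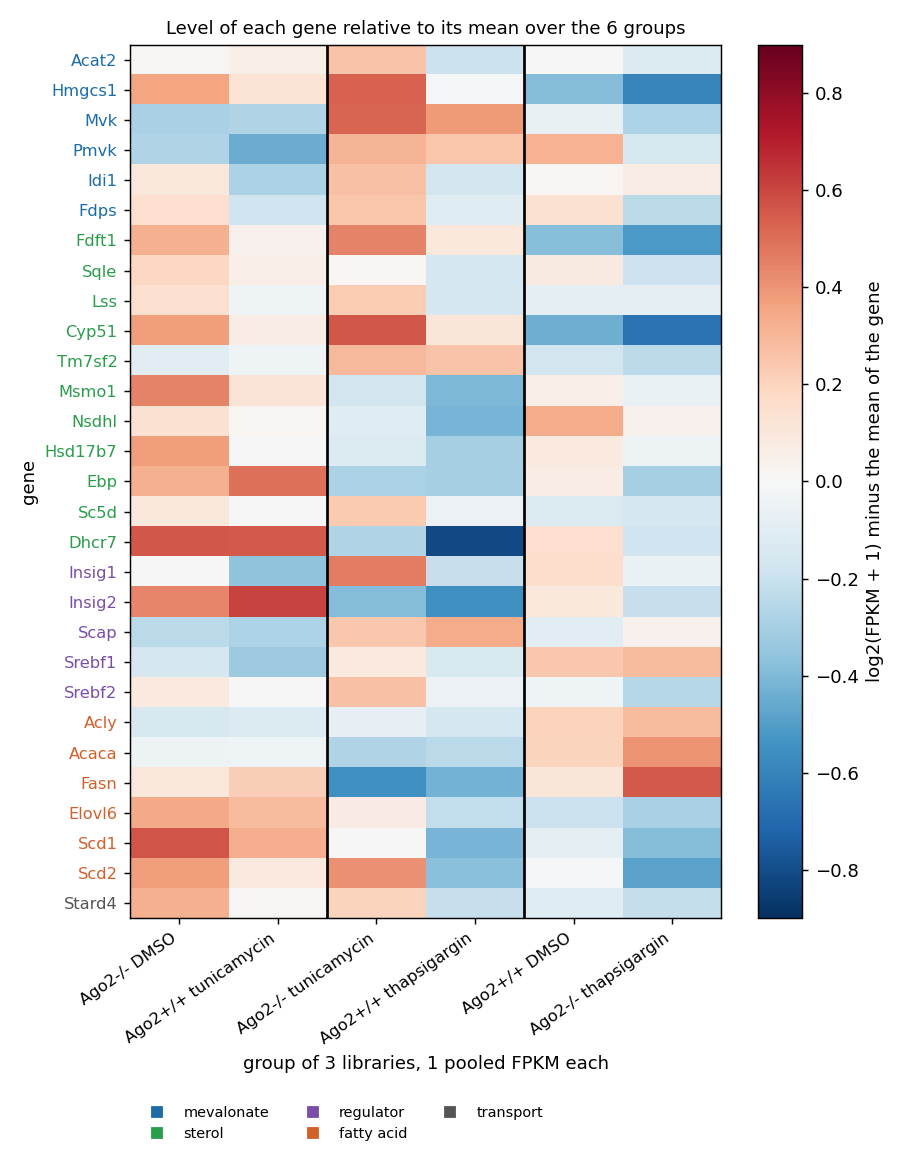
Heat map of the 29 genes (rows, coloured by role) in the 6 groups (columns, close pairs side by side and parted by black lines). Colour gives log2(FPKM + 1) minus the mean of the gene over the groups. Hmgcs1, Fdft1 and Cyp51 are deepest red in Ago2-/- tunicamycin and blue in both groups of the third pair, whereas Fasn is deepest blue in Ago2-/- tunicamycin and deepest red in Ago2-/- thapsigargin.

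No pair of groups held the whole pathway at its highest level. On the mean of each pair, the first pair was highest for 11 of 29 genes (36.0% of loci), the second for 13 (35.4% of loci) and the third for 5 (28.6% of loci). The third pair was the highest for Nsdhl, Srebf1 and the first 3 enzymes of fatty acid synthesis, Acly, Acaca and Fasn. It was the lowest for Hmgcs1, Fdft1, Cyp51, Scd1 and Scd2, among others. Few pathway genes were set apart by the pairs. The values of the 3 pairs did not overlap in 7 of 29 genes (24.1%: Tm7sf2, Msmo1, Dhcr7, Insig2, Scap, Srebf1 and Acaca), beside 50.6% of loci.

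Within the close pairs, most pathway genes were lower in the group with the later-listed treatment. The ratio was taken with the treatments in the order DMSO, tunicamycin, thapsigargin, so that it read Ago2+/+ tunicamycin over Ago2-/- DMSO, Ago2+/+ thapsigargin over Ago2-/- tunicamycin, and Ago2-/- thapsigargin over Ago2+/+ DMSO. The later treatment carried the label Ago2+/+ in the first and second pair and Ago2-/- in the third, so within a pair treatment and genotype label cannot be told apart. These 3 comparisons share no group. Several of the 29 genes varied together over the groups and are not independent of each other, so the counts are a description. In the later treatment, 21 of 29 genes were lower by any amount in the first pair (48.7% of loci), 26 in the second (48.7% of loci) and 23 in the third (53.2% of loci). The later group was the lower in all 3 pairs for 18 of 29 genes (62.1%), beside 12.9% of loci and 12.1% of the 9259 loci whose mean reached 5 FPKM. Those genes were Hmgcs1, Pmvk and Fdps of the mevalonate steps, Fdft1, Sqle, Lss, Cyp51, Msmo1, Nsdhl, Hsd17b7, Sc5d and Dhcr7 of the sterol steps, the regulators Insig1 and Srebf2, the lipid genes Elovl6, Scd1 and Scd2, and the carrier Stard4.

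The differences within pairs were small. The median log2 ratio of the 29 genes was -0.125 in the first pair, -0.30 in the second and -0.14 in the third. Over all loci the typical size of a ratio within a pair, without its sign, was a median of 0.11 over the 3 pairs together. By pair it was 0.08 in the first, 0.11 in the second and 0.15 in the third. The median of the 29 genes in the third pair was thus no larger in size than that of its loci. At 1.5-fold, no pathway gene was called in the first pair, where 0.78% of loci were higher and 1.17% lower. In the second pair 2 genes were lower (Insig1 and Scd2) and none higher, beside 1.21% and 1.15% of loci. In the third pair none was called, beside 2.84% of loci higher and 2.77% lower. At 1.2-fold, a limit added after the data were seen, 9 of 29 genes were lower in the first pair (4.87% of loci), 16 in the second (7.37% of loci) and 9 in the third (14.7% of loci). Among those loci above 5 FPKM the shares were 3.47%, 4.73% and 13.4%. Fdps and Scd2 were lower by 1.2-fold in every pair. In the same ratios, 12 genes of the unfolded protein response that were listed as a check of ER stress had medians of 0.06, -0.03 and -0.18. None of the 12 was called in the first or second pair, and in the third Creld2 (-1.04), Sdf2l1 (-0.76) and Hyou1 (-0.71) were lower by 1.5-fold. Their part in the result was not tested.

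**Figure D2:**
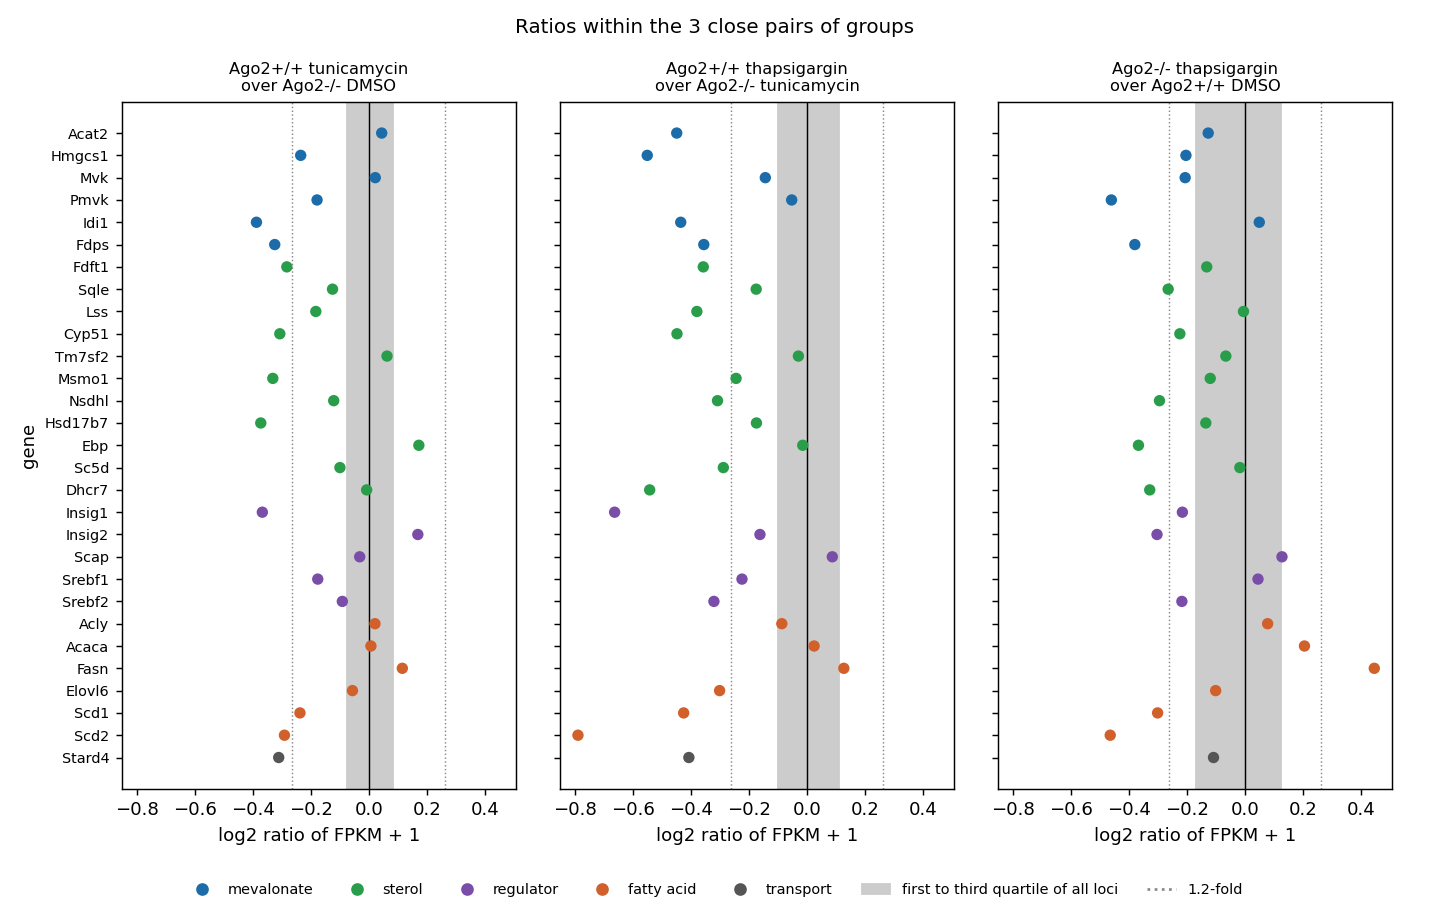
Log2 ratio of FPKM + 1 (x axis) of each of the 29 genes (y axis) within the 3 close pairs, later over earlier treatment. Points are genes coloured by role, the grey band spans the first to the third quartile of all 11929 loci, and dotted lines mark 1.2-fold. In the second pair 26 of 29 points lie left of 0, with Scd2 at -0.79 and Insig1 at -0.66 farthest out, whereas Fasn lies right of 0 in every pair.

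Among the mevalonate enzymes, Hmgcs1 was lower in the later treatment of each pair and lowest in the third pair. The gene encodes the synthase that makes HMG-CoA and lies at chr13:119690379-119708260 (GRCm38). It was at 38.9 FPKM in Ago2-/- DMSO and 32.9 in Ago2+/+ tunicamycin, at 44.1 in Ago2-/- tunicamycin and 29.8 in Ago2+/+ thapsigargin, and at 22.8 in Ago2+/+ DMSO and 19.7 in Ago2-/- thapsigargin. The third pair was thus the lowest, below all 4 other groups, and the ratio within the pairs was -0.23, -0.55 and -0.20.

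Fdps, which makes farnesyl diphosphate, was lower in the later treatment by a similar margin each time. Its level was 143 and 114 FPKM in the first pair, 153 and 120 in the second, and 142 and 109 in the third. The log2 ratios were -0.32, -0.36 and -0.38, and the 3 earlier groups lay above the 3 later groups. Its locus at chr3:89081939-89101959 also holds Gm43738 and Rusc1, so fragments of those genes may be part of the value.

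Idi1, the isomerase that makes dimethylallyl diphosphate, shared the direction in the first and second pair only. It was at 34.5 and 26.2 FPKM, then at 38.8 and 28.4, and in the third pair at 32.5 in Ago2+/+ DMSO and 33.6 in Ago2-/- thapsigargin. The ratios were -0.39, -0.44 and 0.05.

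The kinases followed another order. Mvk, which phosphorylates mevalonate (chr5:114444269-114460591), was at 15.6 and 15.9 FPKM in the first pair, 28.3 and 25.5 in the second, and 18.4 and 15.8 in the third. The second pair stood above all other groups. Pmvk, which adds the next phosphate (chr3:89454541-89469013), was at 22.6 and 19.8 FPKM, at 34.1 and 32.8, and at 34.4 in Ago2+/+ DMSO and 24.7 in Ago2-/- thapsigargin. Here Ago2+/+ DMSO was close to the second pair and its own partner was lower. Acat2, the thiolase that opens the pathway, stayed between 17.3 and 24.0 FPKM.

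From squalene onward, all 11 enzymes were lower in the later treatment of the second and the third pair, and 9 of 11 in the first pair, against the same 48.7%, 53.2% and 48.7% of loci. Tm7sf2 and Ebp were the exceptions there. The median log2 ratio of the 11 genes was -0.125, -0.29 and -0.14 in the 3 pairs.

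Fdft1 and Cyp51 varied together with Hmgcs1. Fdft1 encodes squalene synthase, the first enzyme committed to sterols (locus chr14:63122462-63179578), and Cyp51 encodes the demethylase that acts on lanosterol (locus chr5:3928054-4104746). Cyp51 was at 38.9 and 31.3 FPKM in the first pair, 44.2 and 32.1 in the second, and 21.7 and 18.4 in the third. The ratio within the pairs was -0.31, -0.45 and -0.22, and the third pair lay below all other groups. Fdft1 was at 34.5 and 28.2, 37.7 and 29.2, and 20.7 and 18.8 FPKM, in the same order of groups, with ratios of -0.28, -0.36 and -0.13. As a description over the 6 pooled values of log2(FPKM + 1), Pearson's r was 0.999 between Cyp51 and Fdft1, 0.99 between Cyp51 and Hmgcs1, and 0.987 between Fdft1 and Hmgcs1, the 3 highest values among the pathway genes. The points share libraries and close pairs and are not independent. The assembled locus of Cyp51 was 7.49 times and that of Fdft1 1.66 times as long as the annotated gene, and they run into Akap9 and Ctsb on the opposite strand. Since the sources used here leave out the strandedness of the libraries, fragments of those neighbours may be included.

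**Figure D3:**
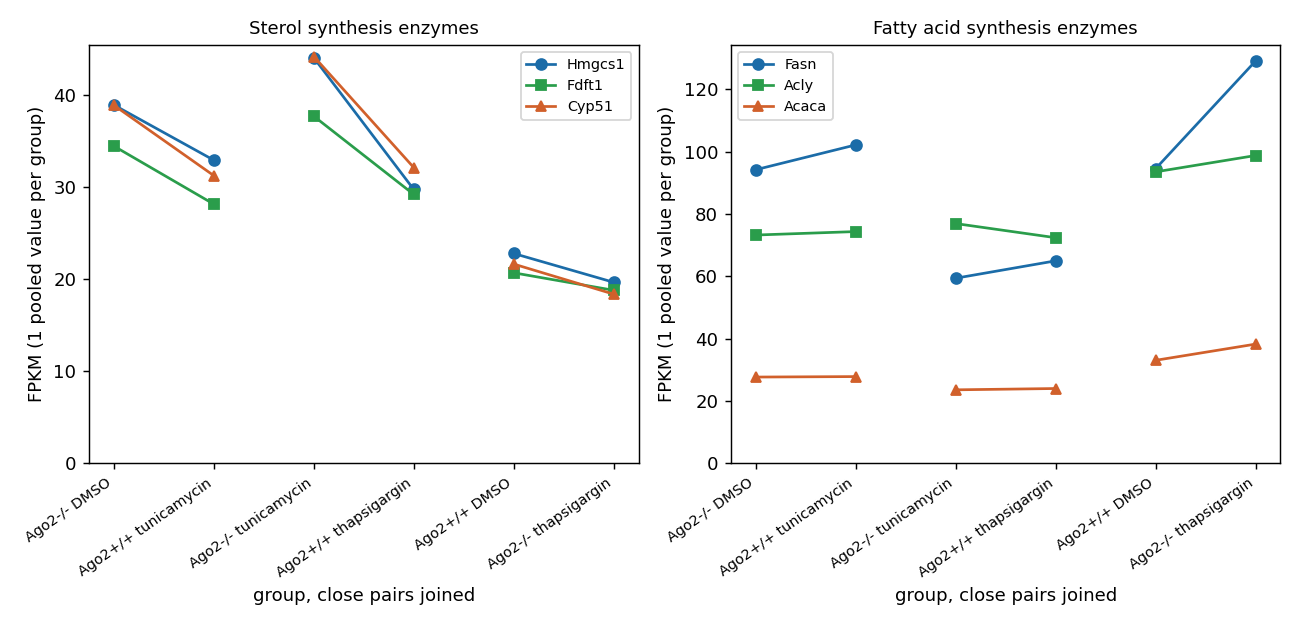
FPKM (y axis, from 0, 1 pooled value per group without error) of 3 sterol enzymes (left) and 3 fatty acid enzymes (right) in the 6 groups (x axis), with lines that join the groups of a close pair. Hmgcs1, Fdft1 and Cyp51 slope down within every pair and are lowest in the third, whereas Fasn slopes up within every pair and reaches 129 in Ago2-/- thapsigargin.

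A search of the promoters of the pathway genes for short motifs had been planned. RefSeq windows of 300 bases (250 before and 50 after the start site, GRCm38.p6) were at hand for 23 of the 29 genes. Those not matched were Fdps, Fdft1, Sqle, Scd1, Scd2 and Stard4. The sterol regulatory element was searched as TCACNCCAC, the NF-Y site as CCAAT, the Sp1 site as GGGCGG and the E-box as CACGTG, on both strands. None of these letter strings contains another. A gene counted as a match if any of its windows held the motif. The sterol element was found in 1 of 23 pathway genes (4.35%), Hmgcs1, where TCACCCCAC starts 137 bases before the start site, and in 1.44% of all 27025 genes. CCAAT was in 19 of 23 (82.6%) beside 41.1% of genes, GGGCGG in 19 of 23 (82.6%) beside 38.2%, and CACGTG in 5 of 23 (21.7%: Dhcr7, Hsd17b7, Insig1, Sc5d and Scap) beside 8.09%. By single windows, the shares over 32851 windows were 1.24%, 37.4%, 35.7% and 7.15%. Both backgrounds cover every gene with a window, whether or not it was expressed in these cells. Whether the larger shares are particular to the pathway, beside other expressed genes, was not tested. Such a match is a string of letters and says nothing about binding in these cells, and a missing match says only that the letters are not in the window.

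The 200 bases before the start site are given for Hmgcs1, which alone held the sterol element, and for Cyp51 and Insig1, which were chosen after their values were seen, as the gene most like Hmgcs1 in level and the regulator that differed most within a pair. The plan had been to show only genes that hold the sterol element. Sequences run 5′ to 3′ on the strand of the gene, and capitals mark every match to the 4 motifs on either strand, so the reverse complement of a motif is in capitals too.
Hmgcs1, chr13:119690151-119690350, plus strand: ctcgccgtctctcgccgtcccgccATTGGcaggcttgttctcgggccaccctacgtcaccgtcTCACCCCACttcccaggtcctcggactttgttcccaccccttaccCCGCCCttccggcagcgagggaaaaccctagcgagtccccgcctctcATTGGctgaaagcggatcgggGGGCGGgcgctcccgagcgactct
Cyp51, chr5:4104698-4104897, minus strand: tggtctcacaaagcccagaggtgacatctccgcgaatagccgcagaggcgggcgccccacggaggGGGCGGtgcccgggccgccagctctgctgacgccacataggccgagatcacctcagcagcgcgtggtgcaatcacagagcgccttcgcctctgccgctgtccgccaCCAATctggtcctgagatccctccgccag
Insig1, chr5:28071212-28071411, plus strand: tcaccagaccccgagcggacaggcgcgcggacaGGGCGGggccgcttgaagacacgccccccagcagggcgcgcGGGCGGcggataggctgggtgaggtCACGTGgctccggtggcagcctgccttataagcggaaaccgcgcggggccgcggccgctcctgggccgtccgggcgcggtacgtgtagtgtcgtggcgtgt
The stretch of Hmgcs1 holds TCACCCCAC in capitals after an inverted CCAAT and before further CCAAT and Sp1 letters, that of Cyp51 holds GGGCGG far upstream and CCAAT near its end, and that of Insig1 holds GGGCGG at 2 places and the E-box CACGTG.

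The demethylation steps after lanosterol kept the common direction at other levels. Msmo1, which oxidises the C4 methyl groups, was at 95.1 and 75.4 FPKM in the first pair, 61.9 and 52.1 in the second, and 72.5 and 66.6 in the third. The 3 pairs did not overlap, with the second pair lowest. Nsdhl, the decarboxylase of the same steps, was at 16.5 and 15.1, at 13.7 and 10.9, and at 19.0 and 15.3 FPKM. Hsd17b7 resembled Msmo1 (r = 0.978 over the 6 values) and lay between 3.65 and 6.40 FPKM.

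The last enzyme showed the largest range. Dhcr7 makes cholesterol from its immediate precursor in the main branch and lies at chr7:143823145-143848410. It was at 16.5 FPKM in Ago2-/- DMSO and 16.4 in Ago2+/+ tunicamycin, at 8.81 in Ago2-/- tunicamycin and 5.74 in Ago2+/+ thapsigargin, and at 12.1 in Ago2+/+ DMSO and 9.46 in Ago2-/- thapsigargin. The pairs did not overlap, and the highest group was 2.87 times the lowest in FPKM. Within the pairs the log2 ratio was -0.01, -0.54 and -0.33.

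Ebp, the isomerase that moves the ring double bond, was higher in the later treatment of the first pair, as was Tm7sf2. It was at 36.0 FPKM in Ago2-/- DMSO and 40.7 in Ago2+/+ tunicamycin (log2 ratio 0.17), at 23.3 and 23.0 in the second pair, and at 30.1 and 23.1 in the third. Tm7sf2, a sterol reductase, was highest in the second pair at 82.0 and 80.4 FPKM and between 56.8 and 65.1 elsewhere. Its locus also holds Gm28374, Vps51 and Zfpl1. Sqle, which oxidises squalene, Lss, which folds the oxidised squalene into lanosterol, and the desaturase Sc5d had narrow ranges of 41.1 to 53.5, 16.6 to 22.0 and 24.5 to 32.3 FPKM.

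Among the regulators, the INSIG genes took different courses. Insig1, whose product retains SCAP and which is itself a known SREBP target, lies at chr5:28071363-28078662. It was at 24.2 and 18.6 FPKM in the first pair, 33.6 and 20.8 in the second, and 27.1 and 23.2 in the third. The later treatment was lower each time, with log2 ratios of -0.37, -0.66 and -0.22, and the ratio of the second pair stood at percentile 0.956 of all loci. Insig2, its relative with the same retaining role, was at 26.9 and 30.4, at 14.7 and 13.0, and at 21.0 and 16.8 FPKM. The 3 pairs of Insig2 did not overlap, and the second pair was the lowest. Over the 6 values Insig2 was most like Ebp (r = 0.971) and Dhcr7 (r = 0.967).

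Scap, the escort of the SREBP proteins, ran opposite to Insig2 over the 6 values (r = -0.98), the lowest r among the pathway genes. Scap ran nearly as opposite to Dhcr7 (r = -0.97), Ebp (r = -0.91) and Msmo1 (r = -0.90), and the 6 values are not independent. It was at 20.0 and 19.5 FPKM in the first pair, 28.4 and 30.2 in the second, and 22.3 and 24.4 in the third. The 3 pairs did not overlap, and Scap was higher in the later treatment of the second and the third pair, at 0.09 and 0.13, as were only Acaca and Fasn among the 29 genes.

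The SREBP genes themselves differed in order. Srebf2, whose product mainly drives sterol genes, was at 53.2 and 49.9, at 60.2 and 48.0, and at 48.5 and 41.6 FPKM, lower in the later treatment of each pair. Srebf1, whose product mainly drives fatty acid genes, was at 30.1 and 26.6, at 35.7 and 30.4, and at 39.9 and 41.1 FPKM. The third pair was highest for Srebf1 and the lowest for Srebf2 on the pair mean. The locus of Srebf1 was 5 times as long as the annotated gene and runs into Rai1 on the opposite strand.

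Fatty acid synthesis split into 2 sets. Acly, which makes cytosolic acetyl-CoA from citrate, Acaca, which makes malonyl-CoA, and Fasn, the synthase, were highest in the third pair, where Hmgcs1, Fdft1 and Cyp51 were lowest. Fasn (chr11:120805846-120824547) was at 94.2 and 102 FPKM in the first pair, 59.4 and 65.0 in the second, and 94.6 in Ago2+/+ DMSO and 129 in Ago2-/- thapsigargin. It was the higher in the later treatment of every pair, with log2 ratios of 0.12, 0.13 and 0.45. Acaca was at 27.7 and 27.8, 23.6 and 24.0, and 33.1 and 38.3 FPKM, so that its pairs did not overlap. Acly was at 93.5 and 98.8 FPKM in the third pair and between 72.4 and 77.0 in the other 4 groups.

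The enzymes that lengthen and desaturate the product went the other way. Scd2 encodes a stearoyl-CoA desaturase and lies at chr19:44293676-44306864. It was at 290 FPKM in Ago2-/- DMSO and 237 in Ago2+/+ tunicamycin, at 297 in Ago2-/- tunicamycin and 172 in Ago2+/+ thapsigargin, and at 221 in Ago2+/+ DMSO and 160 in Ago2-/- thapsigargin. Its ratios of -0.29, -0.79 and -0.47 included the lowest of any pathway gene within a pair. Scd1, the neighbouring desaturase gene, was at 59.7 and 50.5, at 40.1 and 29.6, and at 37.6 and 30.3 FPKM. Elovl6, the elongase of palmitate, was at 22.0 and 21.1, at 18.1 and 14.5, and at 14.9 and 13.8 FPKM. Both were lower in the later treatment of each pair, as was Stard4, which carries sterols between membranes, at 20.6 and 16.4, 18.9 and 14.0, and 15.0 and 13.9 FPKM.

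Each comparison by label crosses from a close pair to another. The stressor comparisons within a genotype share their DMSO group, and all ratios below are given comparison by comparison.

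Tunicamycin over DMSO in the groups labelled Ago2+/+ differed at this limit in a single pathway gene. None was higher and 1 was lower by 1.5-fold, beside 15.2% of loci higher and 14.0% lower, and the median log2 ratio was 0.05. The lower gene was Pmvk, at 19.8 against 34.4 FPKM (-0.76). Insig2 (0.51), Hmgcs1 (0.51) and Cyp51 (0.51) had the largest positive ratios, short of 1.5-fold.

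Thapsigargin over DMSO in the groups labelled Ago2+/+ gave 0 genes higher and 3 lower, beside 14.9% and 12.6% of loci. The lower genes were Nsdhl (-0.75), Dhcr7 (-0.96) and Insig2 (-0.65). The median was -0.24, with 22 of 29 ratios below 0 (48.8% of loci). All 6 fatty acid enzymes were below 0, from -0.03 for Elovl6 to -0.53 for Fasn.

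In the groups labelled Ago2-/-, tunicamycin over DMSO gave 1 gene higher and 5 lower, beside 19.3% and 17.5% of loci. Mvk was the higher, at 28.3 against 15.6 FPKM (0.82). The lower genes were Msmo1 (-0.61), Ebp (-0.61), Dhcr7 (-0.83), Insig2 (-0.83) and Fasn (-0.66). The median was 0.09, and all 6 mevalonate enzymes had ratios above 0 (49.9% of loci).

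Thapsigargin over DMSO in the groups labelled Ago2-/- had the most lower genes, 9 of 29 (31.0%), and none higher, beside 16.8% and 14.3% of loci. Cyp51 was lowest at -1.04 (18.4 against 38.9 FPKM), with Scd1 at -0.955, Hmgcs1 at -0.95, Scd2 at -0.86 and Fdft1 at -0.84. Dhcr7 (-0.74), Insig2 (-0.65), Elovl6 (-0.64) and Ebp (-0.62) completed the set. The median was -0.35, and all 11 enzymes from squalene onward were below 0 (51.3% of loci). Acly, Acaca and Fasn were above 0, at 0.43, 0.45 and 0.45. Beside this comparison, the 12 genes of the unfolded protein response (Hspa5, Ddit3 and others) had a median of -0.55, with 6 lower and none higher by 1.5-fold. In the other 3 stressor comparisons their median was 0.30 and 0.49 for tunicamycin and thapsigargin in Ago2+/+ and 0.29 for tunicamycin in Ago2-/-. The summed level of the 12 genes was highest in Ago2-/- DMSO, at 11590 FPKM, and lowest in Ago2-/- thapsigargin, at 7062. Most of it came from Hspa5, at 7682 and 3677 FPKM in these groups. Stress genes thus did not follow the treatment labels in this comparison, and whether those labels are right was not tested. The part of the stress response in the levels of the pathway genes was not tested.

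**Figure D4:**
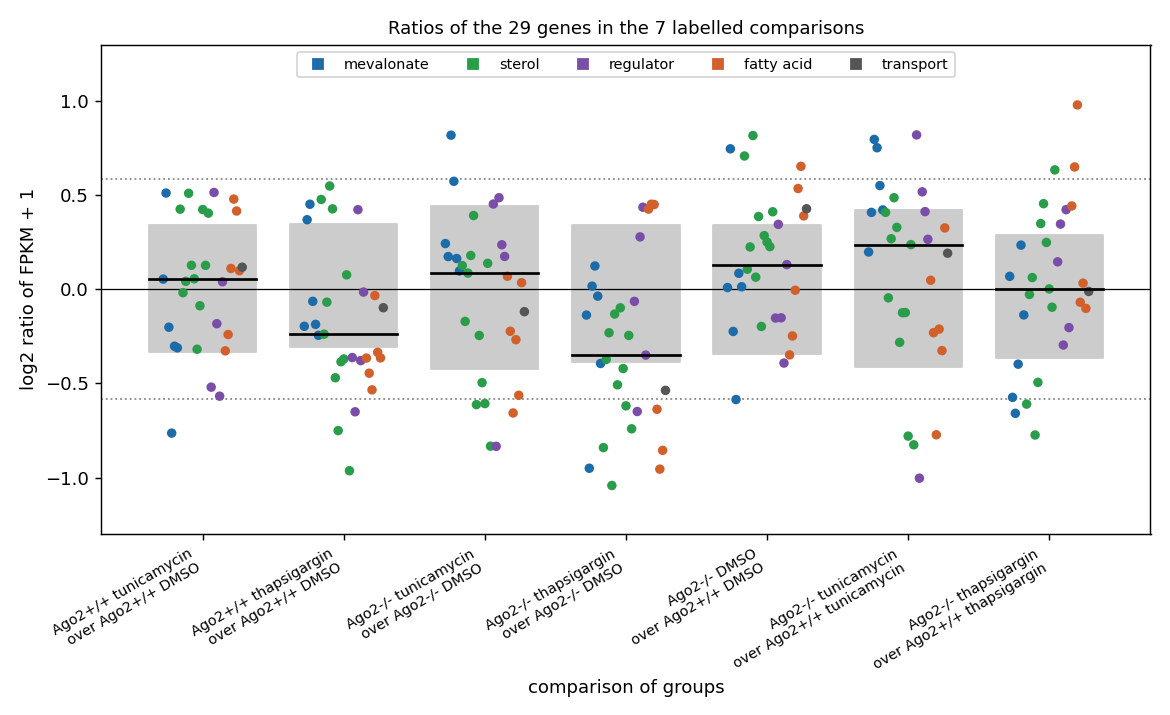
Log2 ratio of FPKM + 1 (y axis) of the 29 genes in the 7 comparisons by label (x axis). Points are genes coloured by role, black bars are their medians, grey bands span the first to the third quartile of all loci, and dotted lines mark 1.5-fold. Thapsigargin over DMSO in Ago2-/- has the lowest median, at -0.35, with 9 points under the lower line.

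Between genotypes, Ago2-/- over Ago2+/+ under DMSO gave 4 genes higher and 1 lower, beside 15.1% and 14.3% of loci. Cyp51 (0.82), Hmgcs1 (0.75), Fdft1 (0.71) and Scd1 (0.65) were higher, and Pmvk lay at the limit (-0.59). The median was 0.13, and 10 of 11 enzymes from squalene onward were above 0 (50.5% of loci), Nsdhl being the exception at -0.20. Ago2 was lower by 1.81 on the log2 scale in the same comparison.

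Under tunicamycin, Ago2-/- over Ago2+/+ gave 3 genes higher and 4 lower, beside 18.7% and 17.1% of loci, with a median of 0.24. The higher genes were Insig1 (0.82), Mvk (0.80) and Pmvk (0.75), and the lower were Insig2 (-1.003), Dhcr7 (-0.83), Ebp (-0.78) and Fasn (-0.77). The INSIG genes thus lay on opposite sides, at 33.6 against 18.6 FPKM for Insig1 and 14.7 against 30.4 for Insig2. Ago2 was higher here, at 1.29.

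Under thapsigargin, Ago2-/- over Ago2+/+ gave 3 genes higher and 3 lower, beside 12.4% and 15.9% of loci, with a median of 0.00. Fasn (0.98), Acaca (0.65) and Dhcr7 (0.63) were higher, and Cyp51 (-0.77), Mvk (-0.66) and Fdft1 (-0.61) were lower. The unfolded protein response genes had a median of -0.54 here, with 5 of 12 lower.

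On the FPKM + 1 scale, no pathway gene met the pattern of opposite responses to a stressor, lower in 1 labelled genotype and higher in the other by 1.5-fold each. The count was 0 of 29 for tunicamycin, beside 15.6% of loci, and 0 of 29 for thapsigargin, beside 10.1% of loci. Pmvk came closest, at -0.76 in Ago2+/+ and 0.57 in Ago2-/- under tunicamycin, and it met the pattern with a pseudocount of 0.1 FPKM in place of 1, which made the count 1. The genotype ratio itself turned between treatments for few genes: for Pmvk between DMSO and tunicamycin (15.8% of loci did so), for Fdft1 and Cyp51 between DMSO and thapsigargin (9.53% of loci), and for Mvk, Dhcr7 and Fasn between tunicamycin and thapsigargin (13.5% of loci).

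Of 20 other genes of sterol and fatty acid metabolism, 18 had a mean of at least 1 FPKM. None of the 18 was higher and 1 was lower by 1.5-fold within a close pair, against the shares of loci given above for the pairs. Acss2, which makes acetyl-CoA from acetate, was at 3.26 and 1.84 FPKM in the second pair (-0.59). In that pair 15 of the 18 were below 0, and in the first and the third pair 13 and 10, with medians of -0.14, -0.07 and -0.04. Across the pairs some of them spread further than the pathway genes. Soat1, which esterifies cholesterol, was at 75.2 and 77.6 FPKM in the first pair, 28.6 and 35.9 in the second, and in between in the third. Acsl3, which activates fatty acids, had the same order of pairs, at 47.7 and 51.8, at 20.2 and 17.8, and at 31.9 and 30.5 FPKM. In FPKM without the added 1, Lpin1 had the widest range of the 18, at 3.715-fold (0.83 to 3.09 FPKM), near the limit of 1 FPKM. On the FPKM + 1 scale its highest group over its lowest was 1.16 in log2. That was smaller in size than Soat1, at -1.41 for Ago2-/- over Ago2+/+ under tunicamycin. Acat1 was at 16.1 and 14.9 FPKM, at 32.1 and 27.8, and at 42.3 and 34.6, with ratios of -0.10, -0.20 and -0.28. Fads1 and Fads2, the desaturases of polyunsaturated fatty acids, were also lower in the later treatment of each pair. Their ratios were -0.24, -0.34 and -0.22 for Fads1 and -0.19, -0.39 and -0.17 for Fads2. Tmem97 (-0.12, 0.07 and 0.08) and Mbtps2 (-0.08, 0.16 and 0.20) were lower in the first pair only. In the labelled comparisons between 1 and 4 of the 18 were higher by 1.5-fold, beside 12.4% to 19.3% of loci, and between 1 and 4 were lower, beside 12.6% to 17.5%.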

How the data were processed

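RNA from 18 mouse embryonic fibroblast libraries was sequenced, 3 per group. According to the study's methods and the submitters' processing notes, the authors checked reads with FastQC 0.11.7, mapped them to GRCm38 (Ensembl release 91) with HISAT2 2.1.0, assembled transcripts with StringTie 1.3.4d and quantified loci with Cuffdiff 2.2.1. The deposited FPKM is 1 value per locus and group, pooled by the authors over the libraries, in a table of 772485 rows for 51499 loci and 15 pairs of groups. The sources used here do not name the library scaling. The authors' own fold changes, test statistics, p-values, q-values and calls were not used.

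Libraries were grouped by title. The groups labelled Ago2+/+ are called DCR1 in the titles and the table, and were read as Ago2+/+ from their other labels. Whole reads were not recovered from the FPKM steps: over 30918 loci with a single transcript, 25.2% to 40.5% of a group's low values were no farther than 0.1 from whole multiples, where 20% is the share without steps. Depth is therefore unknown.

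Ratios were taken on log2(FPKM + 1), which understates changes of low genes, for loci whose mean reached 1 FPKM. A locus was called at 1.5-fold. With 1 value per group, no test was run. The calling script was checked on simulated data without noise, which covers the calculation and not how calls behave in these data. Alternatives were a pseudocount of 0.1 FPKM or none, a mean of at least 5 FPKM or no filter, centring on the median locus, loci without another gene name, and a fold of 2. All members were named by pathway role, other pathway genes where past the fold within a close pair or extreme. Fads2, Tmem97 and Mbtps2 were named only for their direction within the pairs. Members and lists were chosen with earlier results of these data known. Promoters are from RefSeq (GRCm38.p6). Protein sequences were not analysed here.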

Additional observations from a re-analysis of the deposited data

Results flagged for a closer look

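For 6 genes the ratio of Ago2-/- over Ago2+/+ passed 1.5-fold in opposite directions under different treatments. None of these differences was tested, since each group has 1 pooled value, and both the genotype and the treatment labels are uncertain. The difference of both log2 ratios (second treatment minus first) was 1.34 for Pmvk between DMSO and tunicamycin. Between DMSO and thapsigargin it was -1.32 for Fdft1 and -1.59 for Cyp51. Between tunicamycin and thapsigargin it was -1.46 for Mvk, 1.46 for Dhcr7 and 1.75 for Fasn.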

How the results depend on the processing

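No paired analysis was possible because the table holds 1 pooled value per group. Leaving out a library was not run, as no value per library was used. Raising the fold from 1.5 to 2 changed the counts most. The number of pathway genes called then dropped from 1 to 0 (tunicamycin over DMSO, Ago2+/+), from 3 to 0 (thapsigargin over DMSO, Ago2+/+), from 6 to 0 (tunicamycin over DMSO, Ago2-/-) and from 9 to 1 (thapsigargin over DMSO, Ago2-/-). For Ago2-/- over Ago2+/+ it dropped from 5 to 0 under DMSO, 7 to 1 under tunicamycin and 6 to 0 under thapsigargin, and in the second close pair from 2 to 0. The 6 genes with opposite genotype ratios became 0. Without a pseudocount the count for tunicamycin over DMSO in Ago2+/+ went from 1 to 2. With a pseudocount of 0.1 FPKM, an alternative added after the data were seen as was the fold of 2 for opposite patterns, Pmvk alone met the pattern of opposite responses to tunicamycin (0 became 1). The remaining counts stayed within 1.5 times their value, and the median ratio of the pathway genes moved by at most 0.0937 in 60 alternatives, with 1 change of sign.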
